A study of Mus musculus with 6 samples.

Results

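The genes described here encode the enzymes that break fatty acids down for energy. The list names 35 genes of the pathway, and 34 of them were read by 40 of the 29922 probes of the array, on which 16637 genes carry a name. By the place where their proteins work, 19 are mitochondrial, 8 are peroxisomal and 3 (Crat, Ech1 and Eci2) work in both. The other 5 are long-chain acyl-CoA synthetases, which were kept as a group of their own whatever their membrane. Hadhb had no value in any organ, and Acox2 had none in brain. Of the enzymes that make ketone bodies, the list holds Acat1 alone.

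RNA was taken from brain, liver and intestine of male FVB mice of 6 to 8 weeks that had received 8.5 Gy of total-body X-rays 3 h earlier, and from the same organs of untreated male FVB mice. All mice, irradiated and untreated, carried a luciferase transgene driven by NF-κB-responsive elements. A 1-colour array carrying mouse oligonucleotides was hybridized with Cy5-labelled RNA, and its values are normalized spot intensities, not logarithms. There is 1 column of values per organ and treatment and 6 in all, while the methods speak of replicates from independent mice. Each difference below is therefore between a pair of columns, with no error and no test, and a call means a ratio of at least 1.8-fold, the threshold of the study's methods.

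A fatty acid is first activated to its CoA ester by an acyl-CoA synthetase and then carried into mitochondria as a carnitine ester, a step that is known to set the pace of oxidation. Each round of β-oxidation consists of a dehydrogenation, a hydration, another dehydrogenation and a thiolytic cleavage that releases acetyl-CoA. Peroxisomes run a parallel route with enzymes of their own for very long, branched and bile acid precursor chains, and the liver turns surplus acetyl-CoA into ketone bodies. Many of these genes are known targets of the nuclear receptor PPARα.

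After irradiation 3 of the 34 measured genes were higher in intestine and 1 was lower, where 1.72% of all named genes were higher and 2.79% lower (4.51% together). In liver 2 of 34 were higher and 2 were lower, where 1.51% of all named genes were higher and 2.53% lower (4.05% together). In brain none of 33 was higher and 1 was lower, where the shares of all named genes were 0.447% higher and 0.919% lower (1.37% together). These enzymes are mostly brighter than the array, since 30 of 34 in intestine, 29 of 34 in liver and 25 of 33 in brain lay at or above the median intensity of all genes. Among all genes at or above that median, 8.66% in intestine, 7.66% in liver and 2.58% in brain passed the threshold either way. At 1.5-fold, 10 of 34 genes passed in intestine, against 10.5% of all named genes and 19.6% of those at or above the median, 6 of 34 in liver, against 10.5% and 17.8%, and 3 of 33 in brain, against 5.74% and 10.2%. At 2-fold, 2 passed in intestine, 3 in liver and 1 in brain, against 2.93%, 2.39% and 0.696% of all named genes in those organs. In intestine the 3 higher genes were the mitochondrial thiolase Acaa2 and the peroxisomal enzymes Hsd17b4 and Acaa1b, and the peroxisomal oxidase Acox3 was lower. In liver Acsl4 and Crot were higher and Hadha and Acox3 were lower, and in brain the dehydrogenase Acadl was lower. Thus 8 genes passed the threshold, of which Acox3 did so in 2 organs, none in all 3, and 26 in no organ. The same tally across organs was not made over all named genes, so this overlap cannot be set against theirs.

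The median of the list stood near that of all genes. On the log2 scale the ratio of irradiated over untreated intensity had a median of 0.03 in intestine, 0.06 in liver and 0.01 in brain over the list, and of 0.02 in each organ over all genes. Over the genes of at least median intensity it was 0.04 in intestine, 0.04 in liver and 0.03 in brain. The list thus stood slightly below these brighter genes in intestine and brain and slightly above them in liver. In intestine 18 genes lay above 0 and 16 below, in liver 20 above and 13 below, with 1 at 0, and in brain 17 above and 16 below. Over all named genes 8525 lay above 0 and 7339 below in intestine, 8279 above and 7357 below in liver, and 8197 above and 7079 below in brain. The mitochondrial genes had medians of -0.09 in intestine, 0.04 in liver and -0.01 in brain. The peroxisomal genes had medians of 0.13 in intestine, 0.23 in liver and 0.05 in brain. With the 3 genes of both compartments counted in, the peroxisomal median in liver was 0.11, and the mitochondrial medians were -0.03 in intestine, 0.03 in liver and 0.0065 in brain, where the sign turned. Among 33 genes with a value in all 3 organs, 9 were above 0 in every organ, 2 below 0 in every organ, and 21 above 0 in some organ and below 0 in another. The remaining gene, Acsl3, was at 0 in liver and below 0 in brain and intestine. Such signs across organs were not counted over all genes, whose median was above 0 in each organ.

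**Figure D1:**
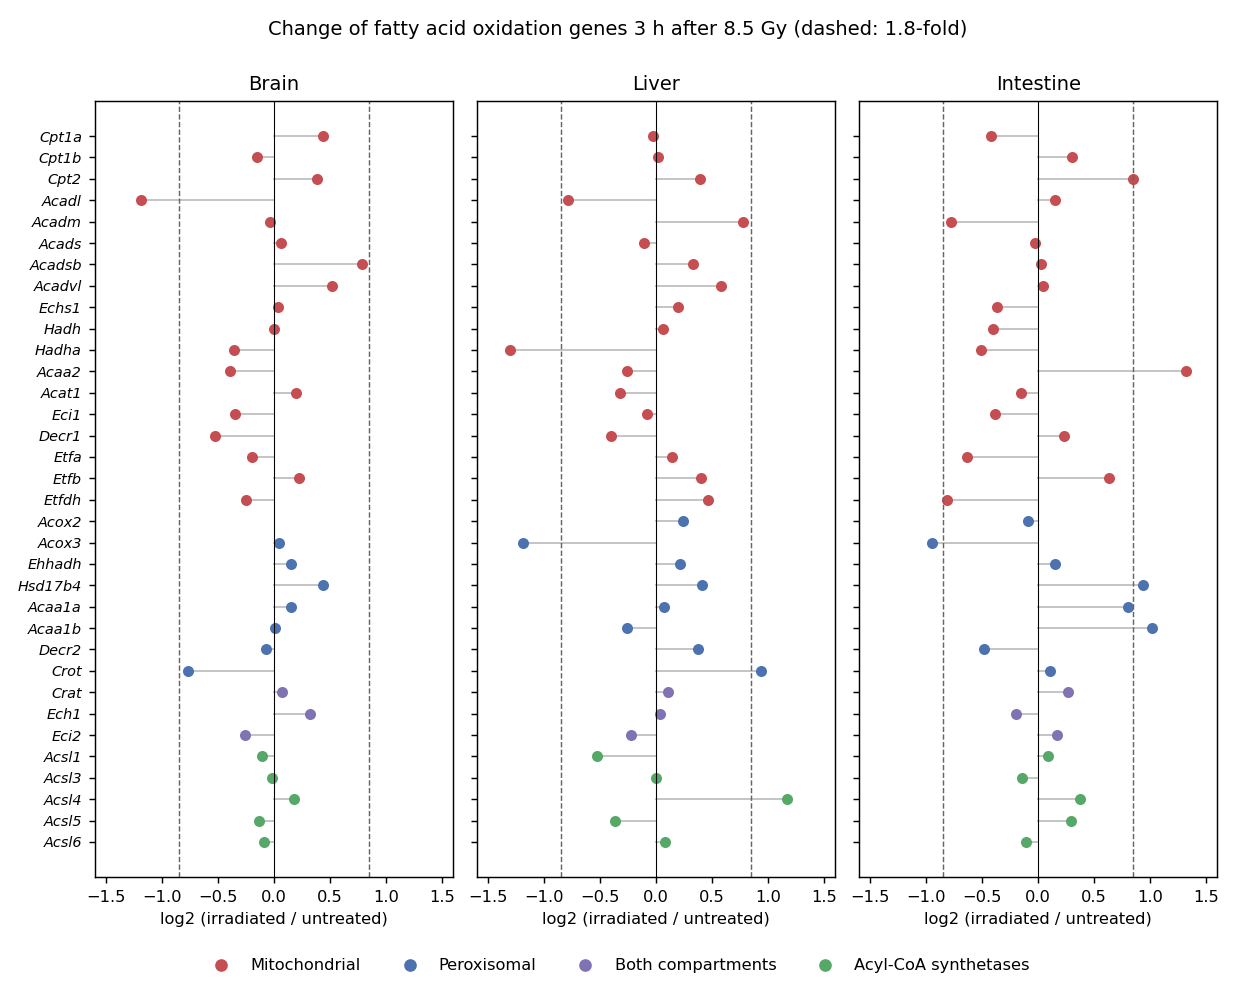
Log2 of irradiated over untreated intensity (x axis) of each measured gene (rows, coloured by compartment) in brain, liver and intestine, with 1 pair of samples per organ and dashed lines at 1.8-fold. Acadl alone passes a line in brain, Hadha, Acox3, Crot and Acsl4 do in liver, and Acaa2, Acox3, Hsd17b4 and Acaa1b do in intestine, with Cpt2 just short of it.

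**Figure D2:**
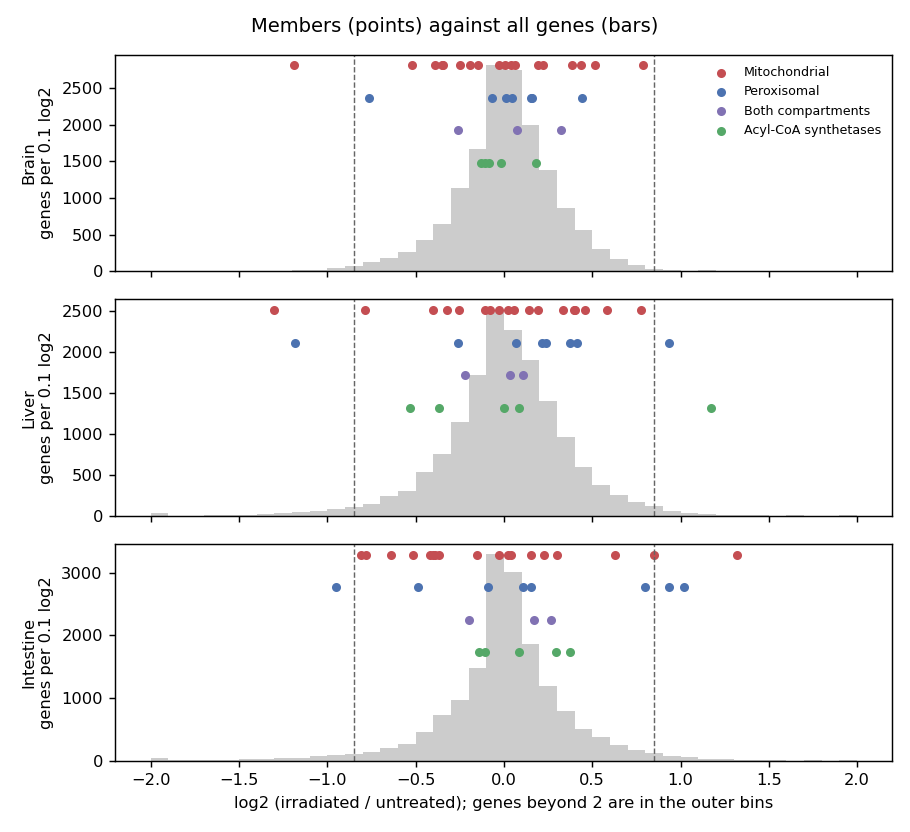
Number of all named genes per bin of 0.1 in log2 of irradiated over untreated intensity (bars) in each organ, with the fatty acid oxidation genes as points in 4 rows by compartment and dashed lines at 1.8-fold. The points lie on both sides of 0 in every organ, with 1 past a line in brain, 4 in liver and 4 in intestine.

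Acsl4, a synthetase with a preference for arachidonic acid, was the one gene of the list with a call that several probes shared. The other genes with a call were each read by 1 probe, so agreement between probes could not be seen for them. Its 4 probes read 1331.5, 187.5, 1364 and 150.5 in irradiated liver, against 520.5, 95, 560 and 71.5 for the same probes in untreated liver. All 4 were past the threshold, with folds between 1.97 and 2.56, and the gene's mean log2 ratio was 1.17 (2.26-fold higher). In intestine the same probes read 147, 72, 254 and 53 after irradiation, against 119, 60, 152 and 46.5 in untreated mice, so all 4 lay above 0 but none passed the threshold. In brain the gene's intensity over its probes was 240.0 in irradiated and 211 in untreated mice, and 3 of 4 probes lay above 0 and 1 below, between -0.12 and 0.42 on the log2 scale.

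**Figure D3:**
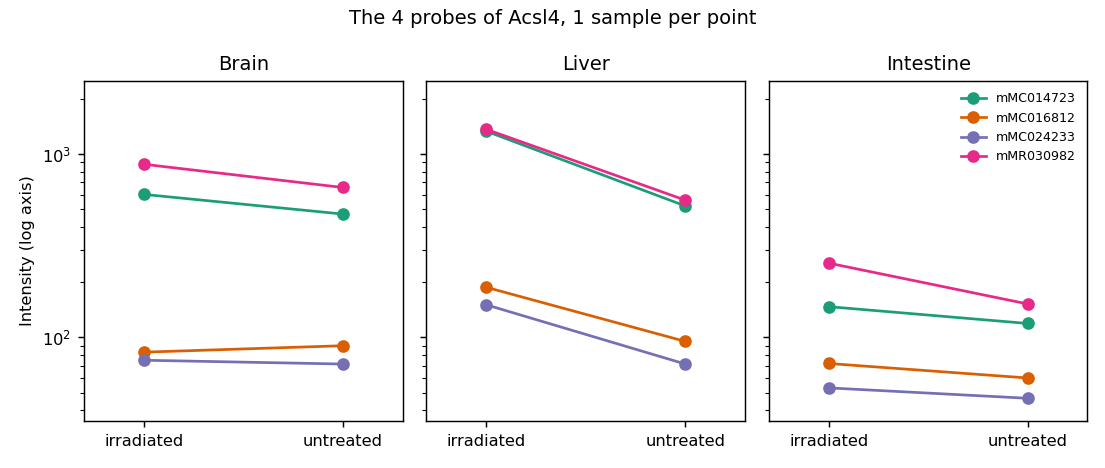
Intensity (y axis, log scale) of the 4 Acsl4 probes in irradiated and untreated samples of each organ, 1 value per point and a line joining the readings of a probe. All 4 liver lines slope down from irradiated to untreated, with log2 ratios of 0.98 to 1.36, and those of brain and intestine span -0.12 to 0.74.

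The other synthetases were within the threshold in every organ. Acsl1, the main form of liver and fat, read 281 in irradiated and 405.5 in untreated liver. Acsl5, known from intestine and liver, read 58.5 in irradiated and 75.5 in untreated liver, close to the sample medians of 54. Acsl3 had the same intensity of 124 in both liver samples. It read 2343 in irradiated and 2371 in untreated brain. Acsl6, a form of neural tissue, read 414.5 in irradiated and 439.5 in untreated brain, and in liver and intestine it lay under the sample median in both treatments. Thus the synthetase that was higher in liver was 1 of 5, and the rest of the family spanned -0.53 to 0.08 there.

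The promoter of Acsl4 is shown because its gene had the most widely read difference. The window of 250 bases before to 50 after the transcription start (RefSeq, GRCm38.p6, chrX:142390486-142390785, minus strand) is written 5′ to 3′ with GC boxes (GGGCGG on either strand) in capitals, where neighbouring matches may overlap.
Acsl4: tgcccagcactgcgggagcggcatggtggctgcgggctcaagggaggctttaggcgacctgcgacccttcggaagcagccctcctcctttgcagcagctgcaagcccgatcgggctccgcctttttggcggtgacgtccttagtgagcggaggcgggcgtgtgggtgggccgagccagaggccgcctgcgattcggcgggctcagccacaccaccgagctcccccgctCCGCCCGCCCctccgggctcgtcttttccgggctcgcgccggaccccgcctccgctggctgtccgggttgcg
It held 2 GC boxes and no CCAAT box.

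The carnitine shuttle moves activated acyl chains into the mitochondrial matrix. Cpt1a, the carnitine palmitoyltransferase of the outer membrane in liver and most tissues, read 3069.5 in irradiated and 3123.5 in untreated liver, a log2 ratio of -0.03. For the other organs it read 792 in irradiated and 1060.5 in untreated intestine and 344 in irradiated and 254 in untreated brain, all within the threshold. Cpt1b, the form of striated muscle, was under the median of its sample everywhere. It read 34.5 in irradiated and 34 in untreated liver, 59 in irradiated and 48 in untreated intestine, and 64.5 in irradiated and 71.5 in untreated brain. Cpt2, which returns the chain to CoA on the inner membrane, lay above 0 in all 3 organs. It read 1891.75 in irradiated and 1051.5 in untreated intestine, a log2 ratio of 0.847 just short of the threshold of 0.848. In liver it read 1226 in irradiated and 932 in untreated mice, and in brain 159.5 in irradiated and 122 in untreated mice.

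The acyl-CoA dehydrogenases, which take the first step of each round, went different ways. Acadl, the long-chain enzyme, read 205.5 in irradiated and 468.5 in untreated brain (2.28-fold lower). It read 730 in irradiated and 1258.75 in untreated liver, a log2 ratio of -0.79 that is within the threshold, and 1435 in irradiated and 1292.75 in untreated intestine. Acadvl, the very-long-chain enzyme bound to the inner membrane, lay above 0 in every organ, with 1430 in irradiated and 953.5 in untreated liver. Acadsb, which acts on short branched chains, read 893 in irradiated and 517.5 in untreated brain (0.79 on the log2 scale), the nearest to a call upward there. Acadm, the medium-chain enzyme, read 428 in irradiated and 249.5 in untreated liver, and the order was the opposite in intestine, with 106 in irradiated and 182 in untreated mice. Neither difference reached the threshold. Acads, the short-chain enzyme, stood between -0.11 and 0.07 in the 3 organs.

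Hydration and the next oxidation of long chains are carried out by the mitochondrial trifunctional protein, whose α subunit is encoded by Hadha. Hadha read 155.25 in irradiated and 382.5 in untreated liver (2.46-fold lower), the largest difference downward of the list in any organ. It was on the same side in intestine, with 164 in irradiated and 234.25 in untreated mice, and in brain, with 168 in irradiated and 214.5 in untreated mice. Hadha and Acsl4 were thus past the threshold in the same organ and in opposite directions. Hadh, the hydroxyacyl-CoA dehydrogenase for shorter chains, was read by a pair of probes that disagreed. In intestine the brighter probe read 13028.5 in irradiated and 10769.5 in untreated mice, while the dimmer read 64 in irradiated and 135.5 in untreated mice, a log2 ratio of -1.08 with the irradiated value at the sample median of 64. Their mean of -0.40 was within the threshold. The pair also lay on opposite sides of 0 in liver (-0.28 and 0.40) and in brain (0.24 and -0.22, brighter probe first in both), within the threshold. Echs1, the short-chain hydratase, stood between -0.37 and 0.20.

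The start of Hadha is shown since it is shared with its partner gene Hadhb, which had no value here. The genes run in opposite directions, and their promoter windows have 228 of 300 bases in common. The window of Hadha (RefSeq, GRCm38.p6, chr5:30154931-30155230, minus strand) held 1 GC box, in capitals, and no CCAAT box.
Hadha: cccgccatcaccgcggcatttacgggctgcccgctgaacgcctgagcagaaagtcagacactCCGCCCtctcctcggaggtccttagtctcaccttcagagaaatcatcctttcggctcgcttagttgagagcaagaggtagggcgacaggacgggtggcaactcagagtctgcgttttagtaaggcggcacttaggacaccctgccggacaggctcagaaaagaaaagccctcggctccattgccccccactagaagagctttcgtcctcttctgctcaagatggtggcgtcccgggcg

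The thiolases cleave acetyl-CoA from the shortened chain. Acaa2, the mitochondrial thiolase for medium and long chains, read 8307.5 in irradiated and 3325.5 in untreated intestine (2.50-fold higher), the largest difference upward of the list. In liver it read 7101.5 in irradiated and 8479.5 in untreated mice, and in brain 390 in irradiated and 510.25 in untreated mice, so it was below 0 in both. Acat1, which joins acetyl-CoA units on the way to ketone bodies, was dim, at 54 in irradiated and 67.5 in untreated liver and under the sample median in intestine. Of the mitochondrial genes for unsaturated chains, Decr1, the dienoyl-CoA reductase, read 615 in irradiated and 882 in untreated brain, and Eci1, an enoyl-CoA isomerase, stood between -0.39 and -0.08. No call was made for either.

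Electrons from the dehydrogenases pass to the electron transfer flavoprotein, whose subunits are Etfa and Etfb, and then to its oxidoreductase Etfdh. None of the 3 was past the threshold. In intestine the subunits went opposite ways. Etfb read 1530 in irradiated and 988 in untreated intestine (0.63 on the log2 scale), while both probes of Etfa were below 0, at -0.47 and -0.81. In liver the same probes of Etfa stood at 0.49 and -0.21. Etfdh read 132.5 in irradiated and 232.5 in untreated intestine (-0.81), and 371.5 in irradiated and 270.0 in untreated liver (0.46).

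In peroxisomes the first oxidation is made by acyl-CoA oxidases. Acox3, which acts on branched chains, read 163.5 in irradiated and 371.5 in untreated liver (2.27-fold lower). It read 170.5 in irradiated and 329.5 in untreated intestine (1.93-fold lower), and 349.5 in irradiated and 338.5 in untreated brain. It was the only gene of the list past the threshold in more than 1 organ on the deposited values. The intestine call was lost with 50 added to each intensity (-0.78 on the log2 scale) and at 2-fold, and after removal of the intensity trend Acadl too passed in a pair of organs, brain (-1.26) and liver (-0.86). Acox2, the oxidase of bile acid precursors, read 1979.5 in irradiated and 1678.5 in untreated liver.

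Acox3 had the most GC boxes of the windows shown, 5, and no CCAAT box (RefSeq, GRCm38.p6, chr5:35582784-35583083, plus strand, GC boxes in capitals).
Acox3: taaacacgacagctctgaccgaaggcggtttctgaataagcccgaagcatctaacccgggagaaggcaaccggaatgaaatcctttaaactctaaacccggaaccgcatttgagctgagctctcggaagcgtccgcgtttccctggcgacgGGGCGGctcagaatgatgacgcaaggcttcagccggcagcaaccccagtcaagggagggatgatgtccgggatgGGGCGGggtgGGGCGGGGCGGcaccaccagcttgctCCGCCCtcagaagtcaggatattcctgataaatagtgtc

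Of the genes for later peroxisomal steps, Hsd17b4 and Acaa1b were higher in irradiated intestine. Hsd17b4, the D-bifunctional protein that hydrates and oxidizes very long and branched chains, read 3586.25 in irradiated and 1874 in untreated intestine (1.91-fold higher), a call that was lost on removal of the intensity trend (0.83 on the log2 scale). It was also above 0 in liver, with 5453 in irradiated and 4091 in untreated mice, and in brain, with 923.5 in irradiated and 679 in untreated mice. Ehhadh, the L-bifunctional protein, stood between 0.15 and 0.22 in the 3 organs. In brain it was dim, at 74 in irradiated and 66.5 in untreated mice, both under the sample median of 103. Acaa1b, a peroxisomal thiolase, read 200.5 in irradiated and 99 in untreated intestine (2.03-fold higher), a call that was lost with 50 added to each intensity (0.75 on the log2 scale). Its near copy Acaa1a read 3392 in irradiated and 1946.25 in untreated intestine, a log2 ratio of 0.80 that is within the threshold. In liver Acaa1b read 1350.5 in irradiated and 1619.5 in untreated mice, and Acaa1a 1636.5 in irradiated and 1560.5 in untreated mice. In brain Acaa1b read 75.5 in irradiated and 75 in untreated mice. Whether the probes separate these near copies was not tested. After quantile normalization of all 6 samples, which puts the organs on 1 scale, Acaa1b stood at 1735.2 in untreated liver and 108.6 in untreated intestine, and Acaa1a at 1682.1 in untreated liver and 1788.8 in untreated intestine.

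The promoters of the thiolase pair, which lie on the same chromosome and were both above 0 on the log2 scale in intestine, are set side by side (RefSeq, GRCm38.p6, chr9:119341044-119341343, plus strand, for Acaa1a and chr9:119157044-119157343, minus strand, for Acaa1b). Capitals mark GC boxes and CCAAT boxes (CCAAT on either strand).
Acaa1a: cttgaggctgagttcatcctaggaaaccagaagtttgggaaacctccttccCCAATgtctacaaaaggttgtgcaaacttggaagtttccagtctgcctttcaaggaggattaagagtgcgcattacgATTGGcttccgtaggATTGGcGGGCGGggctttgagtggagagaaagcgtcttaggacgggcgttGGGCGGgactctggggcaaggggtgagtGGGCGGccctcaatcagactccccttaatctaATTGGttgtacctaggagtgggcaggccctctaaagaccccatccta
Acaa1b: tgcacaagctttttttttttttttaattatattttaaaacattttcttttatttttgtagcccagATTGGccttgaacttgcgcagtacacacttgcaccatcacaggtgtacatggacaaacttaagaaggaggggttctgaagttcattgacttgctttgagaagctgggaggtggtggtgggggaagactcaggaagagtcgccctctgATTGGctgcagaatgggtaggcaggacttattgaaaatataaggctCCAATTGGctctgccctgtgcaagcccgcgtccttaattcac
Each window held 4 CCAAT matches, of which an overlapping pair in Acaa1b reads the same site on both strands. Acaa1a held 3 GC boxes and Acaa1b none, and 53.3% of the Acaa1a window and 43.7% of the Acaa1b window were G or C.

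A promoter window was given for 29 of the 35 genes, with 33 windows in all. A GC box was in 75.8% of them, against 35.7% of all 32851 windows of the table, and a CCAAT box in 48.5%, against 37.4%. None held TATAAA, which 13.6% of all windows do. The PPAR element AGGTCANAGGTCA was in none of them and in 0.0396% of all windows. A looser form, AGGNCANAGGNCA, was likewise in none of them and in 0.381% of all windows, and the half-site AGGTCA was in 15.2% of them, against 16.3% of all. All motifs were sought on both strands, and each strict PPAR element holds the half-site.

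Crot, the peroxisomal carnitine octanoyltransferase that exports shortened chains, read 1856.5 in irradiated and 971 in untreated liver (1.91-fold higher). In brain the order was the other way, with 234.5 in irradiated and 398 in untreated mice (1.70-fold lower, within the threshold), and in intestine it read 516 in irradiated and 479.5 in untreated mice. Crat, the carnitine acetyltransferase of both compartments, was within the threshold in every organ, with its pair of probes between -0.07 and 0.60, the extremes of which were the readings in intestine. Decr2, the peroxisomal dienoyl-CoA reductase, read 245 in irradiated and 189 in untreated liver, and 105 in irradiated and 147 in untreated intestine. The isomerases Ech1 and Eci2, of both compartments, stood between -0.26 and 0.32. Among the calls nearest to the threshold, Crot in liver and Hsd17b4 in intestine were the smallest in their organs, and Cpt2 in intestine, Acadl in liver and Acadsb in brain were the largest differences short of it.

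**Figure D4:**
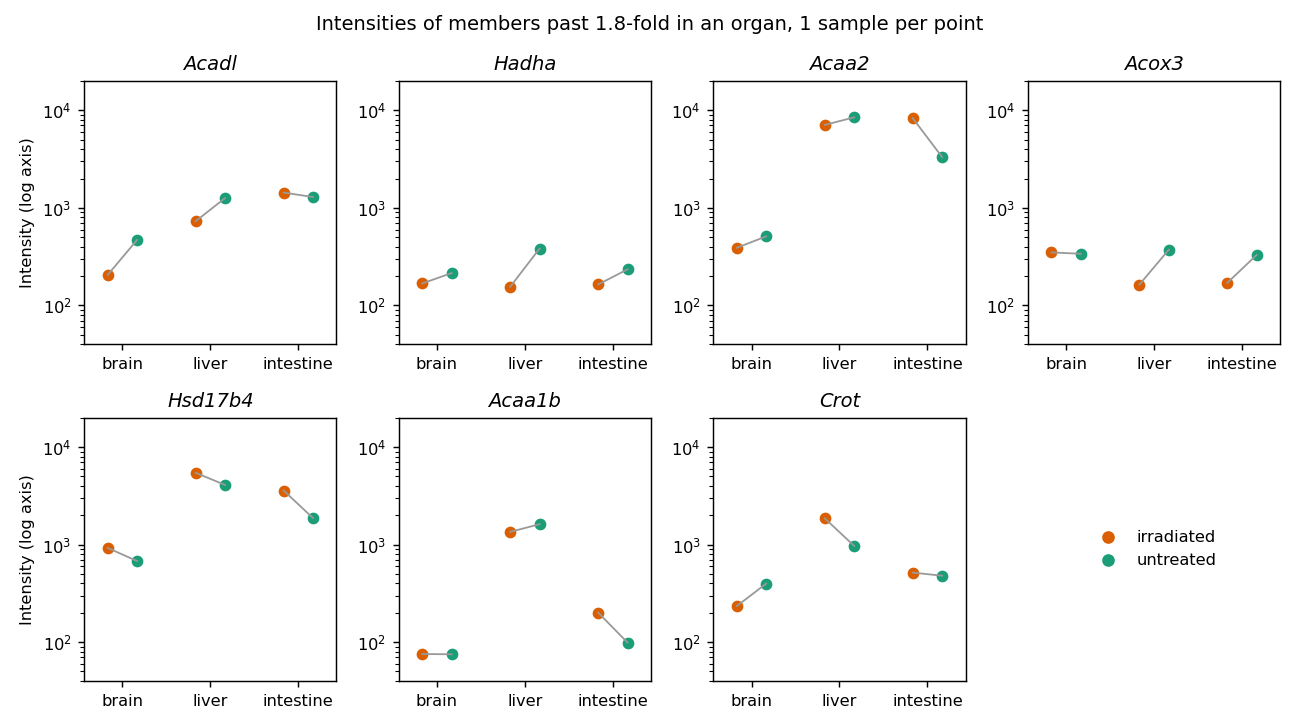
Intensity (y axis, log scale) of the genes past 1.8-fold in any organ other than Acsl4, in irradiated (orange) and untreated (green) samples of brain, liver and intestine, 1 value per point. Acox3 is lower after irradiation in liver and intestine and level in brain, and Acaa2 is higher in intestine and slightly lower in liver and brain.

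The organs were normalized separately, so levels are set across them only after quantile normalization of all 6 samples. Of 33 genes then measured everywhere, 32 reached the median intensity in some organ. After irradiation the highest level was in liver for 20 of these genes, in intestine for 8 and in brain for 4. In untreated mice it was in liver for 26, in intestine for 4 and in brain for 2. Acsl3 and Acsl6 were the pair highest in untreated brain, and Cpt1a, Hsd17b4 and Eci2 were among those highest in untreated liver. Some of these orders rest on near ties. Cpt2 in untreated mice stood at 1056.5 in liver and 1005.9 in intestine, and Etfb in irradiated mice at 1399.8 in liver and 1426.3 in intestine. The same counts were not made over all genes, and neither the order of the organs nor its difference between treatments was tested.

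Other genes of the pathway were described from lists set beside this one. Their calls were made on the deposited values only and were not rerun under the alternatives applied to the main list. Calls on dim genes or close to 1.8-fold may therefore not hold under them. Of 7 measured genes of ketone body synthesis and use, none was past the threshold in brain or intestine, and Bdh2, a cytosolic short-chain dehydrogenase, was 1.82-fold lower in liver, with 107 in irradiated and 195 in untreated mice. The shares of all named genes past the threshold were 4.51% in intestine, 4.05% in liver and 1.37% in brain. Bdh1, the hydroxybutyrate dehydrogenase, read 771 in irradiated and 752 in untreated liver as the mean of its probes. Oxct1, which activates ketone bodies for use, was below 0 in every organ, with 435.5 in irradiated and 537.5 in untreated brain.

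Among genes that control oxidation, intestine had 2 of 15 higher and 1 lower, liver 1 of 14 higher and 1 lower, and brain none of 15 past the threshold, beside 4.51% of all named genes in intestine, 4.05% in liver and 1.37% in brain. Creb3l3, a liver and gut transcription factor that acts with PPARα in fasting, was lower in both organs, with 380.5 in irradiated and 1503.5 in untreated liver (3.95-fold lower) and 558 in irradiated and 1613.75 in untreated intestine (2.89-fold lower). Fgf21, a fasting hormone of the liver and known target of both factors, read 99 in irradiated and 52.5 in untreated liver, the untreated value lying under the sample median. Esrra, a receptor that drives mitochondrial genes, read 494 in irradiated and 245 in untreated intestine (2.02-fold higher), and Sirt3, the mitochondrial deacetylase that acts on oxidation enzymes, read 249.5 in irradiated and 120 in untreated intestine (2.08-fold higher). Ppara itself, read by 1 probe, stood at 60 in both liver samples, close to the sample medians of 54.

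Other enzymes and transporters of oxidation numbered 23 in intestine, with 3 higher and 1 lower, 23 in liver, with 2 lower, and 22 in brain, where none passed, beside the same shares of all named genes (4.51% in intestine, 4.05% in liver, 1.37% in brain). Slc25a20, the carrier that brings acylcarnitines across the inner membrane, read 260 in irradiated and 570.25 in untreated intestine (2.19-fold lower). Eci3, an enoyl-CoA isomerase, was 2.33-fold higher there, with 525.5 in irradiated and 225.5 in untreated mice, and among the thioesterases Acot4 read 304.5 in irradiated and 165 in untreated intestine (1.85-fold higher) and Acot12 read 205.5 in irradiated and 106 in untreated intestine (1.94-fold higher). In liver the thioesterase Acot1 read 156.5 in irradiated and 337.5 in untreated mice (2.16-fold lower), and Acot8 read 91.5 in irradiated and 208 in untreated mice (2.27-fold lower). Of 12 peroxisome assembly genes, Pex5, the receptor for most imported peroxisomal proteins, was lower in intestine, with 242 in irradiated and 541.75 in untreated mice (2.24-fold), and no other passed in any organ, beside 4.51% of all named genes in intestine. Of 10 other targets of PPARα, the fatty acid transporter Cd36 (2.27-fold, with 799 in irradiated and 351.5 in untreated mice) and the lipid droplet protein Cidec (1.92-fold, with 308.5 in irradiated and 160.5 in untreated mice) were higher in intestine, and none passed in liver or brain, against 4.51% of all named genes in intestine, 4.05% in liver and 1.37% in brain.

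The makeup of the samples was read from markers of cell types, whose calls were likewise not rerun under the alternatives. Beside them, 4.51% of all named genes passed the threshold in intestine, 4.05% in liver and 1.37% in brain. The 4 neuron markers summed to 12500 in irradiated and 13600 in untreated brain, the 5 hepatocyte markers to 156000 in liver of both treatments, and the 5 enterocyte markers to 64700 in irradiated and 63700 in untreated intestine, so each organ carried the markers of its label. In intestine, beside the higher Acaa2, Hsd17b4 and Acaa1b, the enterocyte markers had a median log2 ratio of 0.18 and none was past the threshold, with Vil1, of the brush border, at 4160.5 in irradiated and 2476 in untreated mice. Of the 5 hepatocyte markers, 3 were lower in irradiated intestine, namely Alb (268 in irradiated, 2175 in untreated mice), Ttr (115 in irradiated, 218 in untreated mice) and Cyp2e1 (109.5 in irradiated, 204.5 in untreated mice). Of all named genes, 2.79% were lower there. Apoa1 (34794.5 in irradiated, 33592 in untreated mice) and Tat (50 in irradiated, 78 in untreated mice) were within the threshold. The markers summed to 35300 in irradiated and 36300 in untreated intestine, mostly Apoa1. Of the 5 exocrine pancreas markers, Ctrb1 was lower (315.5 in irradiated, 1193.5 in untreated mice) and the others were within the threshold, with a median log2 ratio of 0.07 over the list. The striated muscle gene Acta1 (140.5 in irradiated, 69 in untreated mice) and the adipocyte gene Cfd (281 in irradiated, 141.5 in untreated mice) were higher there, each alone in its list. The 4 measured leukocyte markers summed to 603 in irradiated and 1380 in untreated intestine, with Lyz2 the one past the threshold (256 in irradiated, 901 in untreated mice). In liver none of the hepatocyte markers was past the threshold, while the adipocyte gene Plin1 read 33 in irradiated and 567 in untreated mice and the other 4 adipocyte markers measured were within it. The T cell gene Cd3e was lower there, the one of 4 leukocyte markers past the threshold (92.5 in irradiated, 186.5 in untreated mice). In brain, beside the lower Acadl, the 5 astrocyte markers had a median log2 ratio of 0.0 and none past the threshold, and their sum of 4740 in irradiated and 4150 in untreated mice was mostly Slc1a3 (4068 in irradiated, 3457 in untreated mice). In brain 1 neuron marker, Tubb3, was lower (507.5 in irradiated, 952.5 in untreated mice). Of the hepatocyte markers in brain, Alb was lower (112 in irradiated, 290.0 in untreated mice) and Ttr, which the choroid plexus also makes, was higher (428.5 in irradiated, 229 in untreated mice). The part of these differences in the results was not tested, and fewer cells of a type and less RNA per cell cannot be told apart in whole organs.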

How the data were processed

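The deposited values are linear spot intensities (Cy5) from Mouse Whole Genome OneArray slides. The authors normalized them in R after local background correction, with control features and spots weaker than their noise left out. The submitters' processing notes name limma. Sorted values of both columns of an organ differ by at most 0.0544 on the log2 scale, so the distribution was fixed within an organ, which hides any shift common to all genes. The sources used here do not say whether a column holds 1 array or a summary of several mice. The precision is limited by the number of arrays.

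Between 27017 and 29781 probes have a value per sample. Probes were named from the platform's probe table, and 3410 of 21020 symbols were updated with a mouse annotation (RefSeq, GRCm38.p6), which matched 2 of the genes by an older symbol. A gene's log2 ratio is the mean over its probes, with nothing added to the values, and with several probes its intensity is their geometric mean. Calls are ratios of at least 1.8-fold. Both values are given for every gene of the list past it (in all organs), for Cpt1a, Cpt1b, Cpt2 and Hadha, for probes of a gene on opposite sides of 0 of which 1 is past it, and for up to 4 genes past it per organ in each other list of pathway genes. The genes and lists were chosen with earlier results of these data known. Alternatives were median centring, quantile normalization, removal of the intensity trend (span 0.3), leaving out probes under the 25th percentile, 50 added to each intensity, calls at 2-fold and at 1.5-fold, the brightest probe, probes as units and the genes of both compartments moved. The code that makes the calls was tested on simulated data, which gives the calls no statistical support. Python 3.11.15, pandas 2.3.3 and statsmodels 0.14.6 were used.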

Additional observations from a re-analysis of the deposited data

Results flagged for a closer look

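The following genes were at least 1.5-fold higher after irradiation in one organ and at least 1.5-fold lower in another. Crot differed by 1.70 on the log2 scale between liver (0.94) and brain (-0.76). Acadm differed by 1.56 between liver (0.78) and intestine (-0.78). With 1 pair of samples per organ the differences were not tested.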

How the results depend on the processing

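Of the 9 calls, 5 held under all 8 alternatives that give a gene a value (Acadl in brain, Hadha, Acox3 and Acsl4 in liver, Acaa2 in intestine), and 4 were lost under some. No log2 ratio among them changed sign. A pseudocount of 50 ended the calls for Acaa1b (0.75) and Acox3 (-0.78) in intestine and left 2 genes past the threshold there. Removing the intensity trend ended that for Hsd17b4 (0.83). At 2-fold the calls for Crot in liver and for Hsd17b4 and Acox3 in intestine were lost, leaving 2 in intestine. At 1.5-fold 3 genes passed in brain (5.74% of all named genes), 6 in liver (10.5%) and 10 in intestine (10.5%). Quantile normalization gave 2 in brain, with Acadsb at 0.91. Counting probes gave 7 of 40 in liver, but 4 of these were the probes of Acsl4, counted as 1 gene before. Shares of all named genes were taken only at 1.5-fold, 1.8-fold and 2-fold on the deposited values, not under the other alternatives. Calls in the other pathway lists and among the cell type markers were not rerun under any alternative. Calls gained were Cpt2 in intestine on centring (0.86), and Acadl in liver (-0.86) and Etfdh in intestine (-0.88) without the trend. The list's median moved by less than 0.1 under every alternative, and the sign turned on removal of the trend in brain (-0.05) and intestine (-0.05) and with probes as units in brain (-0.02). With the genes of both compartments added, the peroxisomal median in liver was 0.11 and the mitochondrial median in brain 0.0065, against -0.01. No paired analysis was possible within an organ because each has 1 sample per treatment, and one over organs, with organs as replicates, was not run.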
